A study of Mus musculus with 16 samples.

Results

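The retinoic acid signalling genes described here were STRA6, ALDH1A2, CRABP1, CRABP2, CYP26A1, CYP26B1, RARA, RARB and RARG. They were taken by name, as every probe of the array table whose target name equalled 1 of these 9 symbols, which gave 16 of 45281 probes and 9 of 30854 target names. Mouse embryonic stem (ES) cells were cultured with PA6 cells, a mouse stromal line, as a monolayer beneath them, and PA6 cells were also kept alone. The ES cells were a knock-in line in which the τ promoter drives EGFP, per the methods of the study. Both kinds of culture were kept in serum-free medium for 7 days. The medium held no added factor (-GFs), 20 ng/ml of FGF2 or, per the labels, 10 ng/ml of BMP4, for which the methods name a lower dose. The sample labels give 3 days for the factor, and per the methods it was given from the start and removed after 3 days. The arrays of day 7 thus came after its removal. Groups named below with a factor are those that had received it. There were 2 -GFs, 3 FGF2 and 2 BMP4 co-cultures and 3 PA6 mono-cultures of each kind, in all 16 arrays in 6 groups. RNA came from whole wells, so that a co-culture value covers ES-derived and PA6 cells together. Fewer cells of a type and less RNA per cell cannot be told apart in such samples.

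Retinoic acid is a small lipid made from vitamin A that patterns the embryo and drives ES cells towards neural fates in culture. Retinol enters through the membrane receptor STRA6 and is oxidized to retinaldehyde and then, by enzymes such as ALDH1A2, to retinoic acid. Inside the cell it is bound by CRABP1 and CRABP2, is degraded by the CYP26 enzymes, and switches genes on through RARA, RARB or RARG paired with an RXR on direct repeats of a short DNA half-site.

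Levels are given as normalized log2 intensities, which order arrays for 1 probe but not 1 probe against another. A probe counted as detected on an array at a detection p-value under 0.05. Arrays of 1 group correlated at 0.973 to 0.986 across genes, and 37.3 to 47.0% of the probes were detected per array. The floor of detection lay at 6.25 to 6.96 (log2). The labels speak of biological replicates, 1 well of each condition in each, although no -GFs or BMP4 co-culture array is numbered 3. The PA6 -GFs replicate 2 array gave the highest level of its group for ALDH1A2, CYP26B1 and RARB. In the deposited table the arrays lie in 3 runs of columns, each with arrays of several groups, and what a run stands for is not given in the sources used here.

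Of the 16 probes, 12 were detected on every array of at least 1 group. These covered all 9 genes, and the brightest probe of each gene entered the tests among 14829 genes. The 4 probes that did not pass were 1 probe each of ALDH1A2, CYP26A1, RARG and STRA6, detected on 0 or 1 of the 16 arrays. STRA6 and ALDH1A2 passed through the BMP4 co-cultures alone, CYP26A1 through the -GFs and BMP4 co-cultures, and CRABP1 and CRABP2 through co-cultures alone. For these genes a difference from the groups in which they were not detected was therefore built into the filter.

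The binding proteins of retinoic acid had the widest range between both kinds of culture. CRABP1 stood at 14.54 and 13.94 in the -GFs co-cultures, at 13.04, 11.69 and 12.85 with FGF2 and at 13.19 and 13.54 with BMP4. It was not detected on any of the 9 PA6 arrays (5.38 to 5.64). All -GFs co-cultures were thus above all others, and the PA6 arrays lay under the floor. CRABP2, which carries retinoic acid to its receptors in the nucleus, stood at 13.61 and 13.47 in -GFs, 11.33, 10.74 and 12.11 with FGF2 and 12.61 and 13.26 with BMP4. In PA6 cells CRABP2 lay between 5.53 and 7.93 and was detected only on the replicate 1 arrays with FGF2 (6.99) and BMP4 (7.93).

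Both degrading enzymes differed from each other in where they were seen. CYP26A1 stood at 8.27 and 7.56 in the -GFs co-cultures, at 7.58, 6.59 and 7.04 with FGF2 and at 8.35 and 8.50 with BMP4. The FGF2 value of 6.59 was not detected, nor was any PA6 array (5.60 to 6.09). The BMP4 co-cultures were the highest for this enzyme. CYP26B1 stood at 7.90 and 8.31 in -GFs, 7.43, 7.50 and 7.71 with FGF2 and 6.50 and 6.11 with BMP4, the last not detected. The 3 groups of co-cultures did not overlap, in the order -GFs, FGF2, BMP4. CYP26B1 was also seen in PA6 cells, at 7.13, 9.12 and 7.25 in -GFs, 6.51, 7.53 and 7.18 with FGF2 and 7.46, 8.16 and 6.95 with BMP4, where the groups overlapped and the 6.51 was not detected.

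For retinol uptake, STRA6 stood at 6.46 and 6.18 in -GFs and at 5.72, 6.56 and 6.16 in FGF2 co-cultures, none of them detected, and at 7.67 and 7.55 with BMP4, both detected. In PA6 cells it was not detected on any array (5.53 to 6.38). Among the 16 arrays STRA6 was thus detected only on both BMP4 co-cultures. ALDH1A2, which makes retinoic acid from retinaldehyde, was not detected in -GFs (5.88 and 5.94) or FGF2 (6.01, 6.55 and 6.06) co-cultures and was detected with BMP4 (7.03 and 6.56). In PA6 cells it was detected on the replicate 2 arrays of -GFs (8.47) and BMP4 (8.06) and on none of the other 7.

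Among the receptors, RARA varied least in co-cultures, at 6.77 and 6.78 in -GFs, 6.52, 6.66 and 6.42 with FGF2 and 7.13 and 6.98 with BMP4. It lay between 6.52 and 7.58 in PA6 cells. The FGF2 value of 6.52 was not detected, and each PA6 group detected RARA on 2 of 3 arrays. These levels lay near the floor, which limits how far they can vary. RARB, itself a gene that retinoic acid switches on, stood at 9.13 and 9.59 in -GFs, 8.38, 9.06 and 9.65 with FGF2 and 10.17 and 10.65 with BMP4. Its BMP4 co-cultures were above every other array, the highest of which was PA6 -GFs replicate 2 at 9.86. RARG stood at 7.35 and 7.52 in -GFs, 8.67, 8.58 and 7.85 with FGF2 and 8.19 and 7.69 with BMP4. In PA6 cells RARG lay between 9.25 and 10.00, above all 7 co-cultures.

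**Figure D1:**
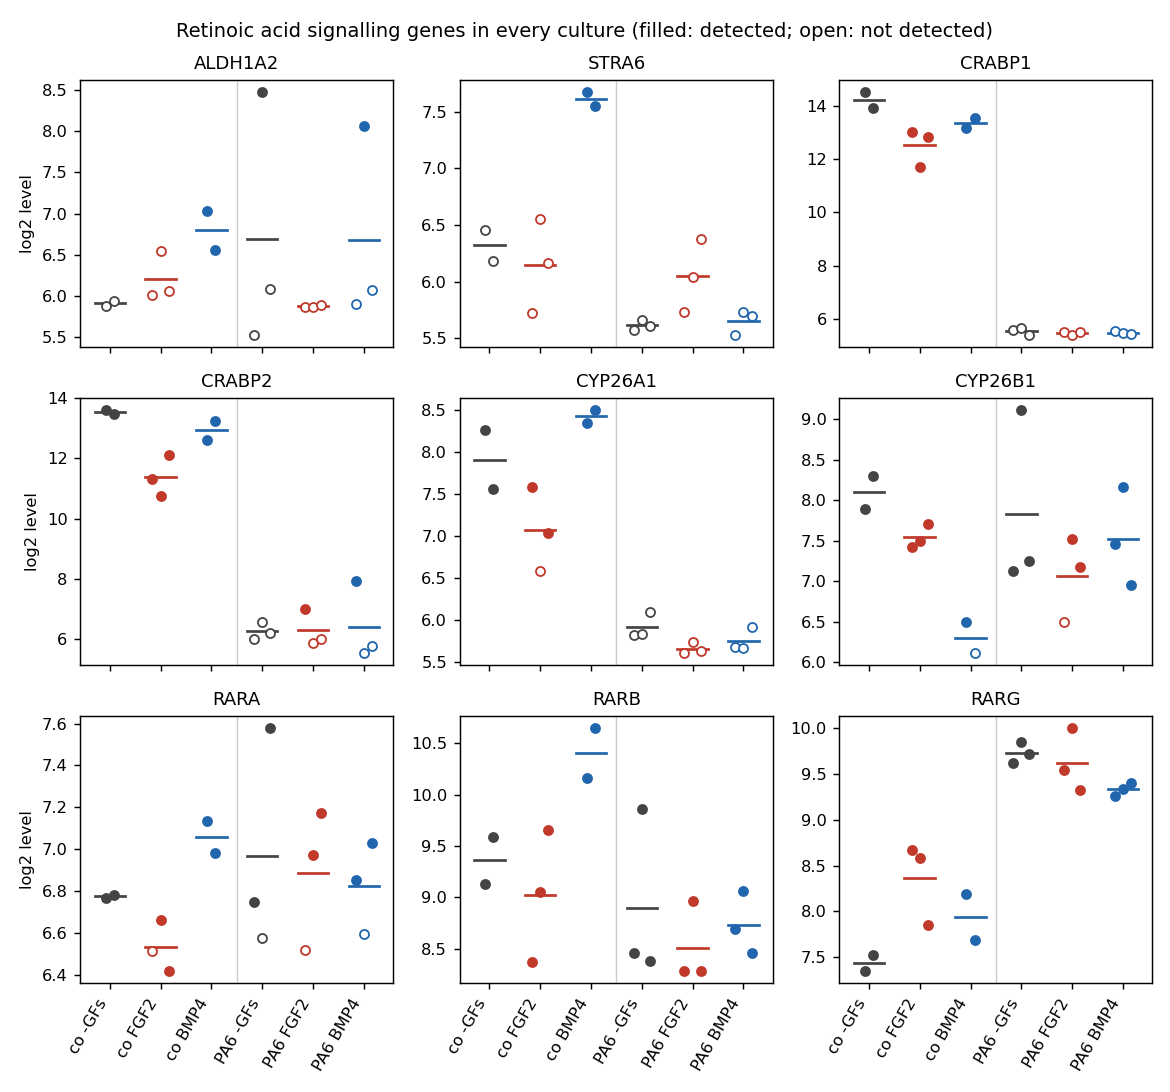
Normalized log2 intensity (vertical axis) of the tested probe of each of the 9 genes on the 16 arrays, by group, with 1 point per array and the detected arrays told apart from those not detected. CRABP1 and CRABP2 are high in all co-cultures, STRA6 is detected only with BMP4 (7.67 and 7.55), and RARG lies highest in PA6 cells (9.25 to 10.00).

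Promoter windows of RefSeq (GRCm38.p6), 250 bases before to 50 after a gene's start, were found for 8 of the 9 genes, in 15 windows, and not for CRABP2. They were searched on both strands for the half-site AGGTCA, for its variant AGTTCA, for its variant GGGTCA and also for GGTTCA, alone and as direct repeats spaced by 1, 2 or 5 bases. A repeat spaced by 5 bases was found in the windows of CYP26A1 and RARB and of no other of these genes. Among all windows of this length 32 of 32851 held 1 (0.0974%), whereas a single half-site was found in 43.7%. Repeats spaced by 2 or 1 bases, in 0.268% and 0.222% of all windows, were in none of the windows of these genes. A match of letters is a description of the sequence and not a measured binding site. The 250 bases before the start of these 2 genes are shown because they hold the repeat, which is in capitals. The first lies on the plus strand at chr19:37697558-37697807, with its repeat read on the opposite strand, and the second on the minus strand at chr14:16575477-16575726.
CYP26A1: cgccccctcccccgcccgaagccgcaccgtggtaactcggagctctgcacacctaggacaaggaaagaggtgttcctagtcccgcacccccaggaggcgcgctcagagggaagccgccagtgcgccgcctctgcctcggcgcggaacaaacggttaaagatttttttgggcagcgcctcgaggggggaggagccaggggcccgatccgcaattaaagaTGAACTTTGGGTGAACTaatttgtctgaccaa
RARB: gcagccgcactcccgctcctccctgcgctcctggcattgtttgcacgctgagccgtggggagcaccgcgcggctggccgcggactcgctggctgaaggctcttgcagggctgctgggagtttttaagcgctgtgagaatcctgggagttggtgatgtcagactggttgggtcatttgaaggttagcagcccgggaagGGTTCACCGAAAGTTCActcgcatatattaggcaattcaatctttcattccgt

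Addition of FGF2 to co-cultures was compared with -GFs to ask how the factor moved the pathway. The 2 binding proteins fell: CRABP2 was 4.44-fold lower, a log2 change of -2.15 ± 0.40 (SE, adjusted p = 0.0269, limma with Benjamini-Hochberg adjustment), and CRABP1 was 3.27-fold lower, a log2 change of -1.71 ± 0.42 (adjusted p = 0.0599). A gene was called at an adjusted p under 0.1 and a log2 change over 1 in size, and 2 of 9 genes were called where 7.42% of all genes tested were. The other 7 genes were not called. Among them RARG gave +0.93 ± 0.29 (adjusted p = 0.117), CYP26A1 -0.84 ± 0.33 (0.193) and CYP26B1 -0.55 ± 0.22 (0.186), and RARB, RARA, ALDH1A2 and STRA6 lay between -0.33 and +0.30. FGF2 and -GFs arrays did not overlap for 6 of the 9 genes, and for 39.7% of all genes. The median change of the 9 genes was -0.33 against -0.06 over all genes.

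Both calls held without any 1 of the 5 FGF2 or BMP4 arrays and were lost without either -GFs array. Without -GFs replicate 1 the change was -1.41 for CRABP1 (adjusted p = 0.261) and -2.08 for CRABP2 (0.143), and without -GFs replicate 2 it was -2.01 (0.129) and -2.22 (0.108). Without FGF2 replicate 3 RARG was called, at +1.19 (adjusted p = 0.0536). A lone remaining array was assumed to vary like the other groups. Within the 2 runs of columns that hold both groups, the difference was -1.50 and -1.09 for CRABP1 and -2.29 and -1.36 for CRABP2.

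BMP4 in co-cultures was read against the same -GFs arrays, so that it shares their error with the FGF2 comparison. CYP26B1, which breaks down retinoic acid, was at least 3.25-fold lower with BMP4, where it was detected on 1 of 2 arrays, with a fitted log2 change of -1.79 ± 0.24 (SE, adjusted p = 0.0196 by limma). STRA6, the retinol receptor, rose at least 2.11-fold, with a fitted log2 change of +1.29 ± 0.29 (adjusted p = 0.0811), both bounds being set against the floor of the arrays in which the gene was not detected. Called were 2 of 9 genes against 3.75% of all genes. RARB gave +1.05 ± 0.41 (adjusted p = 0.297) and ALDH1A2 +0.89 ± 0.26 (0.159, at least 1.20-fold). CRABP1 gave -0.87 ± 0.46 (0.449) and CRABP2 -0.61 ± 0.44 (0.608), and CYP26A1, RARG and RARA lay between +0.28 and +0.51. BMP4 and -GFs arrays did not overlap for any of the 9 genes, and for 46.1% of all genes. The median change was +0.50 against -0.0015 over all genes, with STRA6 and ALDH1A2 tested because they were detected with BMP4.

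CYP26B1 stayed called with each of the 7 arrays left out in turn (adjusted p 0.0333 to 0.0882), and STRA6 in 2 of the 7. STRA6 was lost without -GFs replicate 1 (+1.43, adjusted p = 0.189) or 2 (+1.16, 0.259), BMP4 replicate 1 (+1.23, 0.328) or 2 (+1.36, 0.195), or FGF2 replicate 3 (+1.29, 0.133), and with the run of columns as a block (+1.04, 0.181), a setting chosen after seeing the data. Within the 1 run that holds both groups the difference was -2.19 for CYP26B1 and +1.37 for STRA6.

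Between BMP4 and FGF2 co-cultures, CYP26B1 was at least 2.21-fold lower with BMP4 (fitted log2 difference -1.24 ± 0.22 SE, adjusted p = 0.0779 by limma) and STRA6 at least 2.20-fold higher (+1.47 ± 0.26, adjusted p = 0.0851). The 2 called genes of 9 stand beside 1.44% of all genes. STRA6 passed the filter through the BMP4 co-cultures alone, so that its rise over FGF2 was built in. The largest differences that were not called were CRABP2 at +1.54 ± 0.40 (0.158), RARB at +1.38 ± 0.38 (0.174) and CYP26A1 at +1.36 ± 0.33 (0.142). CRABP1 gave +0.84 ± 0.42 (0.435), ALDH1A2 +0.59 ± 0.24 (0.326), RARA +0.53 ± 0.17 (0.227) and RARG -0.43 ± 0.29 (0.582). Arrays of these groups did not overlap for 8 of the 9 genes, RARG being the exception, and for 31.4% of all genes. The median difference was +0.84 against 0.04 over all genes.

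Both calls changed with single arrays. CYP26B1 was lost without FGF2 replicate 1 (-1.30, adjusted p = 0.134), 2 (-1.26, 0.205) or 3 (-1.16, 0.152) and without BMP4 replicate 1 (-1.43, 0.114) or 2 (-1.05, 0.398). STRA6 was lost without either -GFs array (+1.47, 0.107), FGF2 replicate 1 (+1.25, 0.126) or 3 (+1.47, 0.152), or BMP4 replicate 1 (+1.40, 0.198) or 2 (+1.53, 0.360). With the run of columns as a block, CRABP2 (+1.61, adjusted p = 0.0786), CYP26A1 (+1.63, 0.0422) and RARB (+1.16, 0.0963) were called as well. The same genes were called under median scaling in place of quantile normalization. Under median scaling the median difference of all genes was 0.29, against 0.04 in the main fit. Within the 2 runs that hold both groups the difference was -1.0 and -1.60 for CYP26B1, +1.12 and +1.39 for STRA6, +1.87 and +1.15 for CRABP2 and +1.11 and +1.0 for RARB.

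**Figure D2:**
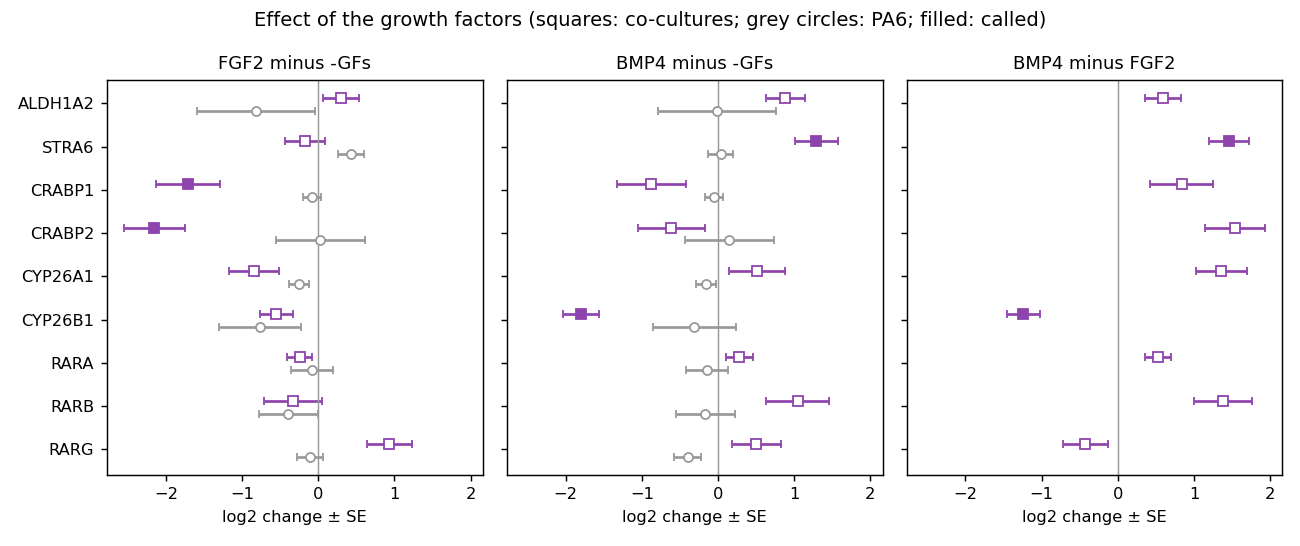
Fitted log2 change of each of the 9 genes (horizontal axis, with its SE as a bar) for FGF2 and BMP4 against -GFs and for BMP4 against FGF2, with squares for co-cultures and grey circles for PA6 cells (first 2 panels), filled where called. CRABP1 and CRABP2 are called lower with FGF2, CYP26B1 lower and STRA6 higher with BMP4, and no gene is called in PA6 cells.

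In PA6 cells alone, the stroma without ES cells, 0 of the 9 genes were called by limma with FGF2 or with BMP4. Over all genes 0.027% were called with FGF2 and 0% with BMP4, and 1536 and 1334 genes had an unadjusted p under 0.05. The largest values were CYP26B1 with FGF2 at -0.76 ± 0.54 (adjusted p = 0.640), ALDH1A2 with FGF2 at -0.82 ± 0.77 (0.729) and STRA6 with FGF2 at +0.43 ± 0.17 (0.432), the last not detected in either group. With BMP4 RARG gave -0.40 ± 0.18 (0.553) and the other 8 lay between -0.31 and +0.15. Of the 9 genes 3 to 5 were detected on each PA6 array, against 6 to 9 on each co-culture. Over all probes 37.3 to 41.3% were detected on the PA6 arrays and 40.5 to 47.0% on the co-cultures.

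The co-cultures were set against PA6 cells under the same condition, to see which genes went with the ES-derived cells. CRABP1 was at least 187-fold higher without a factor, at least 52.8-fold with FGF2 and at least 91.4-fold with BMP4. CRABP2 was at least 116-fold, 23.5-fold and 52.6-fold higher, set against the floor, since it was detected on 1 of 3 PA6 arrays with each factor (fitted log2 differences +5.10 ± 0.54 and +6.52 ± 0.60). CYP26A1 was at least 2.33-fold, 1.20-fold and 2.98-fold higher. RARG was lower in co-cultures, 4.92-fold without a factor (log2 -2.30 ± 0.25, adjusted p = 3.23e-06), by -1.26 ± 0.23 with FGF2 (0.000228) and by -1.39 ± 0.25 with BMP4 (0.00031). In the BMP4 pair alone RARB was called higher, 3.19-fold (+1.67 ± 0.44, 0.00489), STRA6 higher, at least 1.70-fold, and CYP26B1 lower, at least 2.18-fold (-1.22 ± 0.51, 0.0529). Called were 4, 4 and 7 of the 9 genes, where 44.1%, 46.4% and 42.4% of all genes were called. CRABP1, CRABP2, CYP26A1 and STRA6 passed the filter through co-cultures alone, so that a difference from PA6 cells was built in for them. RARA and ALDH1A2 were called in none of the 3 comparisons.

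Most of these calls held with each of the 16 arrays left out in turn. The exceptions were RARG with FGF2, which fell under the fold minimum without co-culture FGF2 replicate 3 (-0.998, adjusted p = 0.000868), and CYP26B1 with BMP4, lost without co-culture BMP4 replicate 2 (-1.02, 0.216) or PA6 BMP4 replicate 2 (-0.90, 0.170). The stromal markers, 10 genes such as COL1A1, averaged 10.0 to 10.7 in co-cultures and 12.1 to 12.7 in PA6 cells (log2). Their part in the lower RARG of co-cultures was not tested.

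The effect of a factor in co-cultures was also tested against its effect in PA6 cells, in 1 fit of all 16 arrays. The FGF2 effect differed for CRABP1 (-1.63 ± 0.42, adjusted p = 0.0341) and RARG (+1.04 ± 0.34, 0.0885), 2 of 9 genes against 7.9% of all genes. The RARG probe ILMN_2618068 gave +1.01 ± 0.58 (0.349, limma over all probes) and was not called. CRABP1 was detected on no PA6 array, so that its difference largely repeats its change in co-cultures (-1.71). The BMP4 effect differed for STRA6 (+1.26 ± 0.32, 0.0542), 1 of 9 genes against 4.23%. STRA6 was detected on no PA6 array and passed the filter through the BMP4 co-cultures alone, so that this difference was largely built in. CRABP2 for FGF2 gave -2.18 ± 0.81 (0.129) and CYP26B1 for BMP4 -1.48 ± 0.72 (0.349), neither called. CRABP1 was lost without co-culture -GFs replicate 1 (-1.34, 0.143), and RARG stayed called in 4 of 16 fits with an array left out. STRA6 was lost in 5 of the 16, one for each of both BMP4 co-cultures, co-culture -GFs replicate 2, PA6 -GFs replicate 2 and PA6 BMP4 replicate 1 (adjusted p 0.102 to 0.169). CRABP2 was called without PA6 BMP4 replicate 1 (-2.18, 0.0300) or co-culture FGF2 replicate 3 (-2.54, 0.0859), and CYP26B1 without PA6 -GFs replicate 2 (-2.12, 0.0504) or with the run of columns as a block (-1.95, 0.0995). With that block 1 of the 9 genes was called for the FGF2 effect.

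RARB and RARG had further probes past the filter. With BMP4 in co-cultures the RARB probe ILMN_2886828 gave +1.18 ± 0.41 (adjusted p = 0.249, limma over all probes) and ILMN_1246864 +0.80 ± 0.24 (0.188, at least 1.62-fold), beside +1.05 for the tested ILMN_2617194. All 3 were higher with BMP4 and none was called. The RARG probe ILMN_2618068 gave +0.89 ± 0.48 (0.340) with FGF2, beside +0.93 for the tested ILMN_3132660. With BMP4 in PA6 cells both RARG probes differed in sign, at +0.34 ± 0.28 (0.743) and -0.40, and neither was called.

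The rest of the pathway was read from 31 other genes of retinol transport, oxidation and co-factors, 29 of them on the table and 19 tested. In co-cultures 0 of the 19 were called by limma with FGF2 or with BMP4. RETSAT, a retinol saturase, gave +0.98 with FGF2 (adjusted p = 0.0538), under the fold minimum. FABP5, which can carry retinoic acid to another receptor, was higher with BMP4 than with FGF2 (+1.77 ± 0.35, 0.0967), a call lost with any of the 7 arrays left out (adjusted p 0.101 to 0.315). In PA6 cells 0 of the 19 were called with either factor.

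Between both kinds of culture without a factor, 8 of the 19 were called lower in co-cultures and 2 higher, beside 21.8% lower and 22.3% higher over all genes, with a median of -0.75 against 0.03 over all genes. Among the falls were those of the alcohol dehydrogenases ADH1 (log2 -4.29 ± 0.64, adjusted p = 5.22e-05) and ADH7 (-3.46 ± 0.33, 7.85e-07), which can oxidize retinol, and the retinaldehyde reductase DHRS3 was at least 3.55-fold lower. ADH5 (+1.36 ± 0.14, 1.74e-06) and the retinol dehydrogenase RDH11 (+1.04 ± 0.21, 0.000627) were higher, RDH11 under the fold minimum with median scaling or the column run as a block. With FGF2 7 were lower and 2 higher, where 46.4% of all genes were called, and with BMP4 8 were lower and 1 higher, where 42.4% were.

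**Figure D3:**
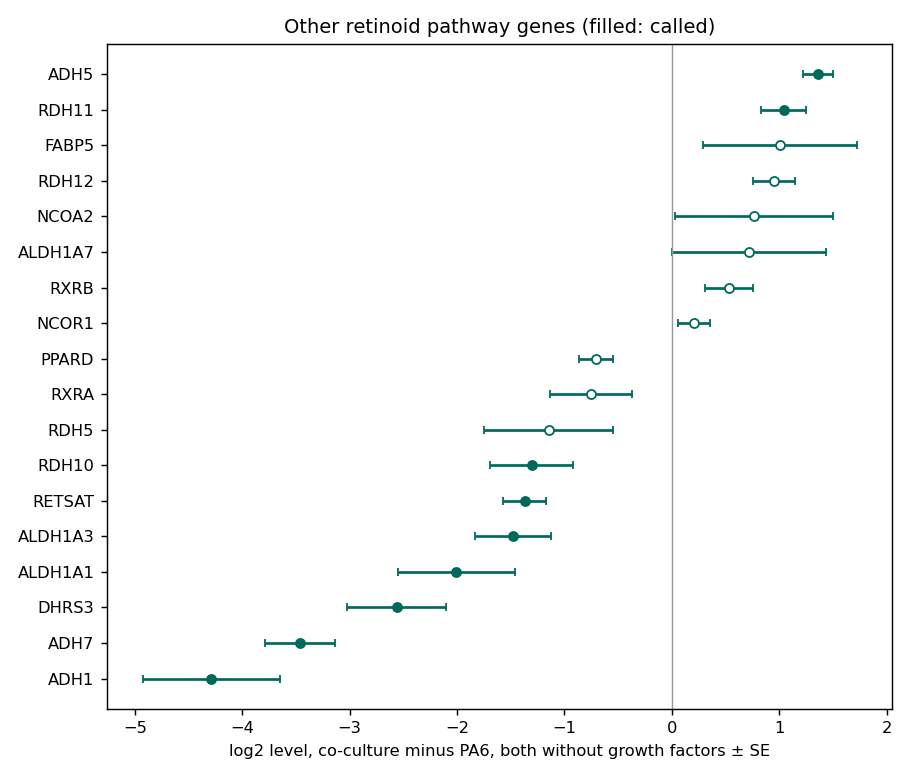
Log2 level in co-cultures minus that in PA6 cells, both without growth factors (horizontal axis, with its SE as a bar), for 18 of the other retinoid pathway genes tested, filled where called. The 7 genes called lower here reach from RDH10 down to ADH1 at -4.29, and ADH5 and RDH11 are called higher.

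Of 18 textbook target genes of retinoic acid, all were on the table and 15 were tested. With FGF2 in co-cultures 1 rose and 3 fell, beside 5.07% and 2.35% of all genes. STRA8, a germ cell gene switched on by retinoic acid, gave +2.51 ± 0.56 (adjusted p = 0.0478), at least 3.95-fold higher. It passed the filter through the FGF2 and BMP4 co-cultures alone, so that a difference from groups in which it was not detected was built in. The homeobox genes HOXB1 and HOXD4 gave -2.84 ± 0.80 (0.0894) and -2.74 ± 0.64 (0.0541), and ZFP703, a zinc finger repressor, -1.51 ± 0.23 (0.0161). HOXB1 and HOXD4 were each detected on 2 of 3 FGF2 co-cultures and were at least 6.84-fold and 6.19-fold lower. The median of the list was -0.61 against -0.06 over all genes. With BMP4 STRA8 alone was called (+2.85 ± 0.62, 0.0755, at least 5.0-fold higher), 1 of 15 beside 3.75% of all genes, and the median was -0.0015, the same as over all genes. Between BMP4 and FGF2, HOXD4 alone was called (+3.24 ± 0.64, 0.0967, at least 8.76-fold higher), 1 of 15 beside 1.44%, and the median was 0.36 against 0.04. In PA6 cells none of the 15 was called by limma with either factor.

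The levels behind these calls varied in -GFs for STRA8, which was detected on 1 of 2 arrays (5.59 and 7.70) and on all FGF2 and BMP4 co-cultures. With each of the 7 arrays left out, the FGF2 calls were kept in 6 for ZFP703 (lost without -GFs replicate 1, -1.46, adjusted p = 0.113), 4 for STRA8, 3 for HOXD4 and 1 for HOXB1. STRA8 was lost without -GFs replicate 1 (+1.46, 0.121), FGF2 replicate 1 (+2.36, 0.113) or FGF2 replicate 2 (+2.60, 0.106). HOXD4 was lost without either -GFs array (-2.85, 0.192 and -2.63, 0.203) or without FGF2 replicate 1 (-2.57, 0.125) or 2 (-2.40, 0.131), and HOXB1 stayed called only without FGF2 replicate 1. STRA8 with BMP4 stayed called only without -GFs replicate 2, and HOXD4 between BMP4 and FGF2 only without BMP4 replicate 1. Against PA6 cells, 5 target genes were higher and 3 lower in -GFs co-cultures, 4 and 5 with FGF2, and 7 and 3 with BMP4, of 15 each time, where 44.1%, 46.4% and 42.4% of all genes were called in either direction. The largest differences without a factor were GBX2, a brain patterning homeobox gene, at least 48.7-fold higher, and RARRES2, which encodes chemerin, at -3.45 ± 0.49 (3.52e-05).

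**Figure D4:**
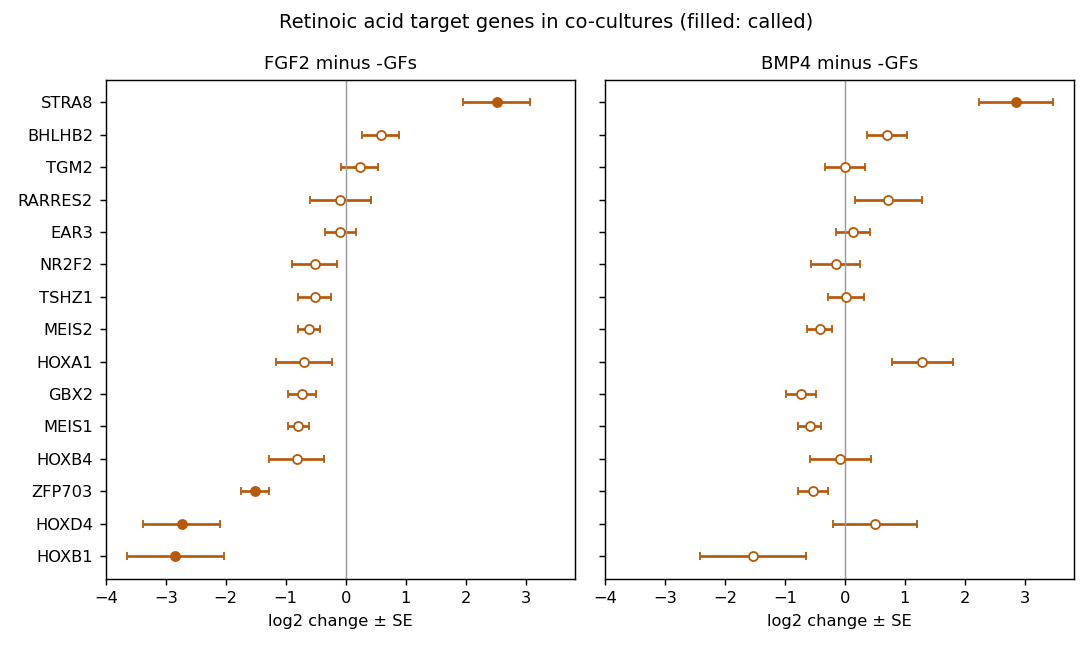
Log2 change of the tested target genes of retinoic acid (horizontal axis, with its SE as a bar) with FGF2 and with BMP4 in co-cultures. STRA8 lies on the higher side with both factors (+2.51 and +2.85), and HOXB1 and HOXD4 lie lowest with FGF2 (-2.84 and -2.74).

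Markers of some of the cell types in the cultures moved with the same comparisons. Over all genes 5.07% were called higher and 2.35% lower with FGF2, and 2.28% and 1.47% with BMP4. Of 10 stromal markers tested 0 were called with either factor, with medians of +0.08 and +0.23. Neural markers (8 or 9 of 12 detected per co-culture) averaged 9.53 to 9.96 in -GFs, 9.15 to 9.28 with FGF2 and 8.91 to 9.14 with BMP4, and 3 of 8 tested fell with each factor. SOX1, PAX6, TUBB3 and NEUROD1 did not pass the filter. Pluripotency markers averaged 10.7 to 10.9, 12.3 to 12.8 and 11.2 to 12.0, and 8 of 10 rose with FGF2 and 3 with BMP4. Surface epithelium markers, with 5, 5 to 8 and 9 of 10 detected, averaged 7.51 to 7.68, 8.04 to 8.26 and 9.99 to 10.41, and of 9 tested 5 rose with BMP4 and 3 with FGF2. Endothelial markers were detected for 3 or 4 of 8 in -GFs, 4 or 5 with FGF2 and 6 with BMP4, and 2 of 4 tested rose with each factor, while CDH5, TIE1, KDR and ICAM2 did not pass the filter. Adipocyte markers averaged 6.47 and 7.47 in the -GFs, 6.39 to 6.88 in the FGF2 and 7.26 and 9.36 in the BMP4 co-cultures. None of the 6 tested was called with either factor, and with BMP4 all 6 changes lay above 0, with a median of +2.06. Of 4 mesoderm and endoderm markers tested, 0 were called with FGF2 and 1, SOX17, rose with BMP4 (+1.97 ± 0.21, adjusted p = 0.0109, limma). The part of these shifts in the changes of CRABP1, CRABP2, CYP26B1 and STRA6 was not tested.

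The genes most like each of the 9 were sought by Pearson correlation of log2 levels over all 16 arrays, which largely follows the split between both kinds of culture. CRABP1 was most like 4930431J08RIK (0.999) and PUNC (0.997), CRABP2 like LOC547380 (0.988), and CYP26A1 like D330050I23RIK and CELSR1 (both 0.974) and WNT3A (0.973). RARG, high in PA6 cells, was most like PLCD3 (0.966) and NID2 (0.964). STRA6 was most like WNT4 (0.925). RARB (APOA1, 0.869), RARA (PKNOX1, 0.832), ALDH1A2 (SVS6, 0.791) and CYP26B1 (LOC665281, 0.743) had no gene as close.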

How the data were processed

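Illumina MouseWG-6 v2.0 BeadChip arrays were used, 1 array for the RNA of each of 16 cultures. The authors deposited bead intensities from GenomeStudio 2011.01 (per the submitters' processing notes), not normalized between arrays, with a detection p-value for each probe and array. The intensities were background corrected from the deposited detection p-values, quantile normalized and, with 16 added, log2 transformed (neqc of limma 3.58.1, R 4.3.3). Probes with p under 0.05 throughout at least 1 group were kept (20880), and each gene was represented by its brightest probe (14829 genes). The 7 co-cultures, the 9 PA6 cultures or all 16 arrays entered a linear model of limma (lmFit and eBayes). Thresholds follow the methods of the study. The number of arrays limits the precision. Fold bounds compare a group's mean with the lowest detected signal of the arrays in which a probe was not detected.

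All 9 genes are named, and of the other lists up to 4 called genes in each direction per comparison, of which 1 is not reported here. The 9 genes, lists and tests were chosen with earlier results of these data known. RefSeq promoter windows matched 8 of the 9 genes by symbol. The closing section gives the alternatives tried. Results of the authors' cubic spline normalization were not used here.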

Additional observations from a re-analysis of the deposited data

Results flagged for a closer look

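A factor's effect in co-cultures differed from its effect in PA6 cells by a test of the difference itself (limma, 16 arrays) for 9 results, given as log2 differences with adjusted p. For FGF2 these were RARG (1.04, 0.0885), CRABP1 (-1.63, 0.0341), STRA8 (2.53, 0.0216), HOXD4 (-2.97, 0.0309), HOXB1 (-2.68, 0.0741), ZFP703 (-1.27, 0.0380) and RXRA (1.53, 0.0947), the partner of all 3 receptors. For BMP4 they were STRA6 (1.26, 0.0542) and STRA8 (2.48, 0.0494). CRABP1 and STRA6 were detected on no PA6 array, so that their differences largely repeat those within co-cultures. STRA6 passed the filter through the BMP4 co-cultures alone, and STRA8 through the FGF2 and BMP4 co-cultures alone. RARG was called by 1 of its 2 probes past the filter.

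With each of the 16 arrays left out in turn, the difference for CRABP1 was lost only without co-culture -GFs replicate 1 (-1.34, adjusted p = 0.143), and that for ZFP703 only without the same array (-1.22, 0.115). RARG kept its call in 4 of the 16, those without co-culture FGF2 replicate 3, either BMP4 co-culture or PA6 FGF2 replicate 2, and ranged up to an adjusted p of 0.221 (without co-culture -GFs replicate 1, 0.95). RXRA kept it in 6 and HOXB1 in 8, with the highest adjusted p without co-culture -GFs replicate 2 for RXRA (1.42, 0.233) and without co-culture -GFs replicate 1 for HOXB1 (-1.78, 0.283). STRA6 was lost without co-culture -GFs replicate 2 (1.12, 0.168), BMP4 replicate 1 (1.19, 0.169) or BMP4 replicate 2 (1.32, 0.102), and without PA6 -GFs replicate 2 (1.23, 0.105) or PA6 BMP4 replicate 1 (1.19, 0.112). STRA8 for BMP4 was lost without co-culture BMP4 replicate 2 (2.18, 0.156) or PA6 BMP4 replicate 3 (2.28, 0.104).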

How the results depend on the processing

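Counts of the 9 genes called (limma) changed with several settings, and the cause was not tested unless given. With FGF2 in co-cultures 2 became 1 at an adjusted p under 0.05 or without the detection filter (CRABP2 each time) and 0 when a probe had to be detected on all 16 arrays, which left only RARB and RARG to test. With BMP4 2 became 1 (CYP26B1 each time) at an adjusted p under 0.05, without the detection filter, without background correction, with a replicate block or with a column run block, and 0 with detection on all 16 arrays. Between BMP4 and FGF2 2 became 0 at an adjusted p under 0.05, without the detection filter, with detection on all 16 arrays or with a replicate block, 1 without background correction (CRABP2) or with an offset of 50 (STRA6), and 5 under median scaling or a column run block. Detection on all 16 arrays left 1, 1 and 2 of the 4, 4 and 7 genes called against PA6 cells without a factor, with FGF2 and with BMP4, and with FGF2 2 were left without background correction. For the FGF2 effect between both kinds of culture 2 became 1 at an adjusted p under 0.05, without the detection filter, with detection on all 16 arrays or with a column run block. Other settings raised counts as well. The highest were 3 for FGF2 in co-cultures, 5 against PA6 cells without a factor and 3 for the FGF2 effect. For the BMP4 effect 1 became 0 at an adjusted p under 0.05, without the detection filter, with detection on all 16 arrays, without background correction, with an offset of 50 or with a trend in the variance prior, and 2 with a column run block. With 1 array left out the counts ranged, in the order of the report, over 0 to 3, 1 to 2, 0 to 1, 0 to 0 and 0 to 0 for the factors, 4 to 4, 3 to 4 and 6 to 7 against PA6 cells, and 0 to 3 and 0 to 1 for the effects.

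Signs turned in 20 results when an array was left out, none of them past the threshold. In PA6 cells with BMP4 the ranges were -0.71 to 0.87 for ALDH1A2, -0.61 to 0.59 for CRABP2, -0.66 to 0.33 for CYP26B1, -0.34 to 0.16 for RARA, -0.43 to 0.32 for RARB and -0.0026 to 0.098 for STRA6. With FGF2 they were -1.40 to 0.072 for ALDH1A2, -0.32 to 0.24 for CRABP2, -0.28 to 0.22 for RARA, -0.65 to 0.090 for RARB and -0.30 to 0.044 for RARG. Against PA6 cells without a factor they were -1.37 to 0.10 for ALDH1A2, -0.084 to 0.91 for CYP26B1 and -0.39 to 0.11 for RARA, with FGF2 -0.11 to 0.31 for STRA6 and with BMP4 -0.27 to 0.81 for ALDH1A2. For the FGF2 effect they were -0.43 to 0.56 for CYP26B1, -0.47 to 0.033 for RARA and -0.42 to 0.39 for RARB, and for STRA6 with FGF2 in co-cultures -0.38 to 0.039. Without background correction CRABP2 in PA6 cells turned to -0.0049 with FGF2 and -0.0052 with BMP4, and ALDH1A2 with BMP4 to 0.029, and under median scaling STRA6 with BMP4 to -0.00017. ALDH1A2 against PA6 cells with BMP4 turned to -0.050 with a replicate block and -0.14 with a column run block, and under the latter the FGF2 effect turned to -0.061 for CYP26B1 and -0.11 for RARB.

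Same-numbered arrays deviated together at -0.20 to 0.28 in co-cultures and 0.070 to 0.20 in PA6 cells, where 7 of 9 pairs lay above 0.1, and 1 of 6 in co-cultures. Every PA6 array correlated best with its own number, a hint from the data that they share a source. The numbers were not taken to pair the arrays because not every pair lay above 0.1. PA6 pairs of unlike number lay at -0.14 to -0.012. In PA6 cells the replicate number and the column run coincide and cannot be told apart. Other comparisons kept their count of calls within 1.5 times with the replicate block. Arrays of 1 column run deviated together at 0.098 to 0.28 in co-cultures. Over all genes the calls of the 10 comparisons ranged from 324 to 1675 for FGF2 (1100) and 32 to 870 for BMP4 (556) in co-cultures, 2 to 574 between them (214), 0 to 32 (4) and 0 to 6 (0) in PA6 cells, 3480 to 10123 (6540), 3575 to 10860 (6874) and 3236 to 9981 (6283) against PA6 cells, and 451 to 1627 (1172) and 106 to 713 (628) for the effects. Under median scaling the median of all genes was -0.21, 0.093 and 0.29 in the co-culture comparisons, against -0.057, -0.0015 and 0.039 in the main fit. Signals near the floor limit what can be said of STRA6, ALDH1A2, CYP26A1, CYP26B1 and RARA.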
